A study of Rattus norvegicus with 7 samples.

Results

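Leukocyte and Kupffer cell miRNAs are small RNAs that mark blood-derived cells, among them the resident macrophages of the liver (Kupffer cells), the granulocytes and the lymphocytes. The members were taken by name, as any array entry for miR-142, miR-150, miR-155, miR-223, miR-146a, miR-146b or miR-342, in its plain, star, 5p or 3p form. The rule gave 12 of the 677 rat miRNAs on the array, from 6 precursors, and the array carried no probe under the name of miR-155. Of these 12 members, 7 were detected widely enough to be tested and the other 5 were detected on no array.

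The samples were livers of adult male Sprague-Dawley rats that ate a diet containing PFOS (potassium perfluorooctanesulfonate, a long-lived surfactant whose carbon chain is fully fluorinated), mixed in at 50 mg/kg diet, or a control diet, both ad libitum for 28 days. There were 4 PFOS arrays and 3 control arrays, with total RNA from 1 rat on each, and 1 more control array had been left out by the submitters on quality grounds. The study asked how hepatic miRNAs respond to dietary PFOS in the setting of thyroid hormone homeostasis. RNA of the whole liver was measured, so fewer cells of a type and less miRNA per cell cannot be told apart.

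A miRNA guides an Argonaute protein to messenger RNAs, mainly by pairing of its seed, which leads to repression of the target. Several miRNAs are made almost wholly in blood cells, so that in a solid organ their signal follows resident macrophages, passing leukocytes and blood left in the vessels. Both arms of a precursor hairpin can be loaded, and on this array a star marks the arm that was regarded as the minor one when the names were given.

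Mature sequences from RefSeq (GRCr8) were matched for 10 of the 12 members. Those of miR-150 and miR-150* are not printed here. The 5 tested members with a sequence are shown first, followed by miR-146b for comparison with miR-146a, each 5′ to 3′ with the seed (bases 2 to 8) in capitals.
miR-142-3p: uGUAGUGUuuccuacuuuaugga
miR-142-5p: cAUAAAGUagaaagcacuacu
miR-223: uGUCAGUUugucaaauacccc
miR-146a: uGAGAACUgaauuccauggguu
miR-342-3p: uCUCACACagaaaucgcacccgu
miR-146b: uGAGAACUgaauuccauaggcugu

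The 10 sequences held 9 seeds, because miR-146a and miR-146b share theirs. No other mature rat miRNA among the 693 in the RefSeq table carried any of these 9 seeds. Counted from 1 at the 5′ end, miR-146b differed from miR-146a by G18A and U21C within the 22 bases that could be compared, after an identical run of 17, and had 2 more bases at its 3′ end. A pair this alike may share signal on an array, which was not tested.

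The hairpins of miR-142 and miR-223 are shown because both arms of the first were detected in these livers and a single arm of the second. The mature arms, 5p and then 3p, are in capitals.
Mir142: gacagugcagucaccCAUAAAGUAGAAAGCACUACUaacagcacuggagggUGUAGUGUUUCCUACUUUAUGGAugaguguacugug
Mir223: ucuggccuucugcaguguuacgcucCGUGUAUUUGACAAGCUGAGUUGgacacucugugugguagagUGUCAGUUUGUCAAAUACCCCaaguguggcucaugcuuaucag

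The genes lie apart from each other in the GRCr8 annotation. Mir142 lies on chromosome 10 within the bounds of Tspoap1, next to Mpo, the gene of the granulocyte enzyme myeloperoxidase. Mir342 lies on chromosome 6 within the bounds of Evl, and Mir223 lies on chromosome X between Msn and Vsig4, the second of which encodes a complement receptor of Kupffer cells. Mir146a is on chromosome 10 as well, Mir146b on chromosome 1 within the bounds of C1h10orf95, and Mir150 on chromosome 1 as well. Strand was not considered for these overlaps, and coordinates are not given because the array was annotated on the older assembly rn4.

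Every member had 20 spots on each array. A spot was counted as well above background by the scanner software's own flag, and detection of a member required that 1 or more of its probes have over 50% such spots among those without an outlier flag. All kept spots of miR-142-3p, miR-146a and miR-223 were well above background on all 7 arrays. For miR-142-5p the share of such spots was 100% on every PFOS array, and 100%, 80% and 95% on control replicates 1 to 3. For miR-150* it was 100% except on control replicate 3, where it was 55.6%.

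The remaining tested members were close to the limit. The share for miR-150 was 47.4%, 52.6%, 80% and 80% on PFOS replicates 1 to 4, and 50%, 50% and 52.6% on the control arrays. One of its 2 probes carried most of this signal. That probe was detected on all 7 arrays, and the other was detected on 2 and lay below the signal floor of 12.1 on all 7.

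The share for miR-342-3p was 15%, 60%, 94.1% and 90% on PFOS replicates 1 to 4, and 78.9%, 0% and 0% on control replicates 1 to 3. It was therefore detected on 3 of 4 PFOS arrays and on 1 of 3 control arrays, and its level elsewhere rests on signal that was not well above background. Apart from control replicate 1, the share went up with the brightness of the arrays, and the part of brightness in it was not tested. The median unscaled signal of the 123 miRNAs detected on all arrays was 226 to 326 on PFOS arrays and 133 to 176 on control arrays. It was 226 on PFOS replicate 1, where the share for miR-342-3p was 15%, and 176 on control replicate 1, where the share was 78.9%. From the dimmest array to the brightest, the shares were 0%, 0%, 78.9%, 15%, 60%, 90% and 94.1%.

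miR-223*, miR-146a*, miR-146b, miR-146b* and miR-342-5p had 0 spots well above background, out of 130 to 139 kept spots each over the 7 arrays. Their unscaled signal, summed over probes, lay between -13.8 and 0.996 for the 4 star or 5p members, that is at background. For miR-146b it was slightly positive on every array, from 4.30 to 14.5 on PFOS arrays and from 4.23 to 7.53 on control arrays. None of the 5 has a level or a fold change here.

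**Figure D1:**
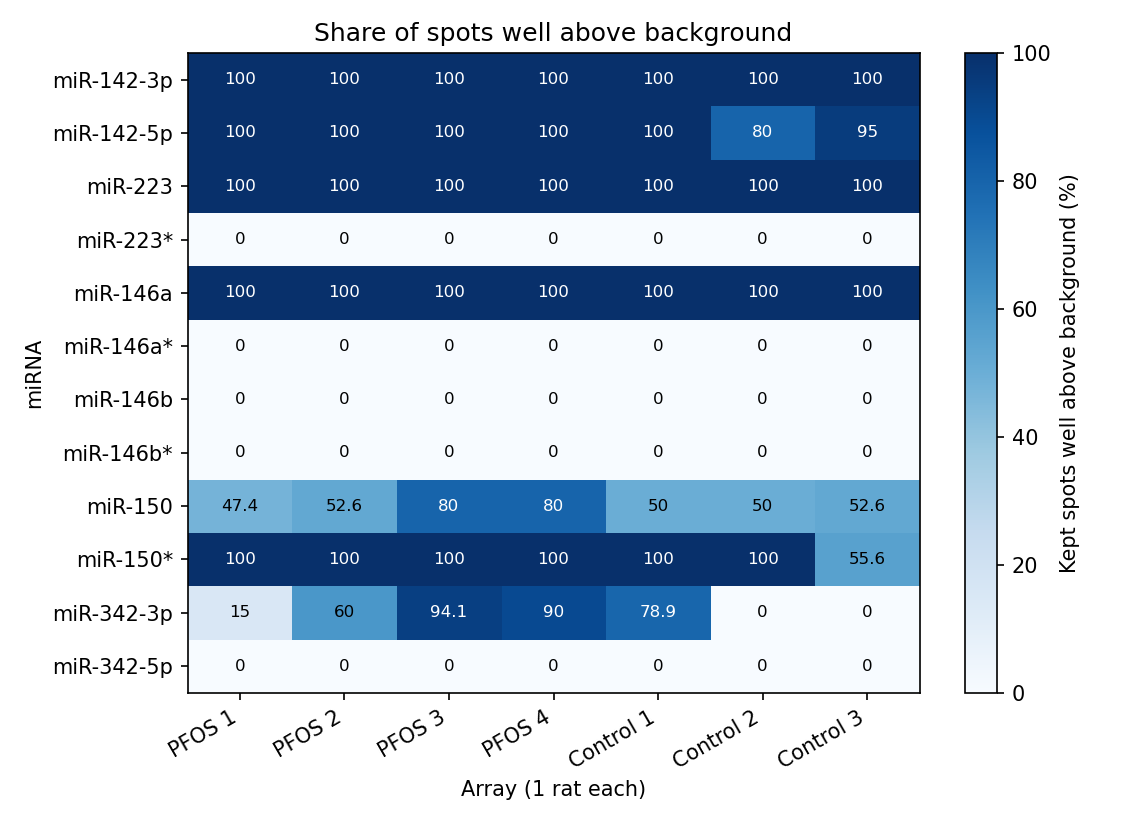
Share of kept spots well above background (percent, colour and printed number) for each of the 12 members (rows) on each of the 7 arrays (columns, 4 PFOS and then 3 control). Rows for miR-142-3p, miR-223 and miR-146a read 100 throughout, 5 rows read 0 throughout, and miR-342-3p runs from 0 to 94.1.

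Over the 7 tested members, limma at a threshold of 0.05 on the adjusted p called 0 members in PFOS against control livers, where the share called among all 175 tested miRNAs was also 0% (0 of 175). At an unadjusted p under 0.05 it found 1 member, miR-223, lower in PFOS livers, and 34 of all tested miRNAs, or 19.4% in either direction and 10.9% for lower alone. The members' count of 1 of 7 was near that background. The fold change was positive for 3 members and negative for 4, with a median of -0.02 on the log2 scale, and the median over all tested miRNAs was likewise -0.02. The groups were free of overlap for 0 of the 7 members, against 19.4% of all tested miRNAs in either direction and 9.71% with PFOS lower. The median standard error was 0.17 for the members and 0.14 for all tested miRNAs.

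Levels below are normalised signals on a linear scale, which can be set side by side between arrays for 1 miRNA but not between miRNAs, whose probes differ. Group means are averages of log2 values turned back to that scale, and SDs are on the log2 scale.

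miR-223 is a miRNA of the myeloid line, abundant in neutrophils and monocytes, where it restrains granulocyte production and activation in mice. Its signal was 109, 116, 126 and 106 in PFOS replicates 1 to 4, and 136, 125 and 139 in control replicates 1 to 3. A single PFOS liver, replicate 3 at 126.4, stood above the lowest control liver, replicate 2 at 125.3, and the other 3 PFOS livers lay below every control liver.

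The means of miR-223 were 114 in PFOS and 134 in control livers (SD 0.11, n = 4, and SD 0.08, n = 3). The log2 fold change was -0.23 (SE 0.09), with a 95% interval from -0.44 to -0.01. It had rank 30 of 175 by p and did not pass, with an adjusted p of 0.230 in limma. Both of its probes were lower in PFOS livers, with log2 differences of -0.20 and -0.15 before the loess step.

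Within the first slide row the log2 difference of miR-223 was -0.28 (2 PFOS arrays and 1 control array) and within the second row -0.19 (2 and 2). Leaving out each array in turn gave -0.29 to -0.15, with no change of sign. The unadjusted p of 0.0394 in limma went above 0.05 without PFOS replicate 1, 2 or 4 or control replicate 1 or 3 (5 of 7 fits, up to 0.184), and in 7 of the 12 alternatives that keep all arrays, among them 0.0604 with the slide row as a block. With arrays scaled to the 75th percentile of all miRNAs in place of the detected ones, the value turned to 0.04 and the median over the tested miRNAs came to 0.25, and under labelling spike-in scaling it was -0.67, where that median was -0.45. Relative to the median of all tested miRNAs it was -0.21 in both. Both had to come out alike, since a single factor per array shifts all fold changes equally, apart from values at the floor. Whether the groups overlapped depended on the processing, since in 4 of 9 ways of making the values all PFOS livers lay below all control livers. These 4 included spike-in scaling, where the median over the tested miRNAs was itself -0.45. Under the reported processing 9.71% of all tested miRNAs were free of overlap with PFOS lower. That share was not counted under the other ways, so the 4 of 9 cannot be set against it. In signal without any scaling the PFOS livers had 108 to 195 and the control livers 82.5 to 115, on arrays that were brighter in PFOS as a whole.

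miR-142 is made in nearly all blood-cell lineages, and loss of it disturbs myeloid, lymphoid and platelet development in mice. The signal of miR-142-3p was 735, 546, 693 and 704 in PFOS replicates 1 to 4, and 674, 668 and 683 in control replicates 1 to 3. The 3 control values lay close together and inside the range of the PFOS values, of which replicate 2 was the lowest and the other 3 exceeded every control liver.

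The means of miR-142-3p were 665 in PFOS and 675 in control livers (SD 0.19, n = 4, and SD 0.02, n = 3), which gave -0.02 as the log2 fold change (SE 0.12, limma adjusted p = 0.9997). The 95% interval ran from -0.30 to 0.26, so these arrays leave room for a difference within that range in either direction. Without PFOS replicate 2 the value was 0.07. The spots of a probe agreed closely, with a median coefficient of variation over the 7 arrays of 4.69% for 1 probe and 6.69% for the other.

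The other arm, miR-142-5p, gave 88.6, 58.3, 77.7 and 72.7 in PFOS replicates 1 to 4, and 69.6, 55.7 and 74.6 in control replicates 1 to 3. Here too PFOS replicate 2 was the lowest PFOS liver, and the groups overlapped. The means were 73.5 and 66.1 in PFOS and control livers (SD 0.25, n = 4, and SD 0.22, n = 3). The log2 fold change was 0.15 (SE 0.17, 95% interval -0.26 to 0.56, limma adjusted p = 0.705), the highest among the 7 members.

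**Figure D2:**
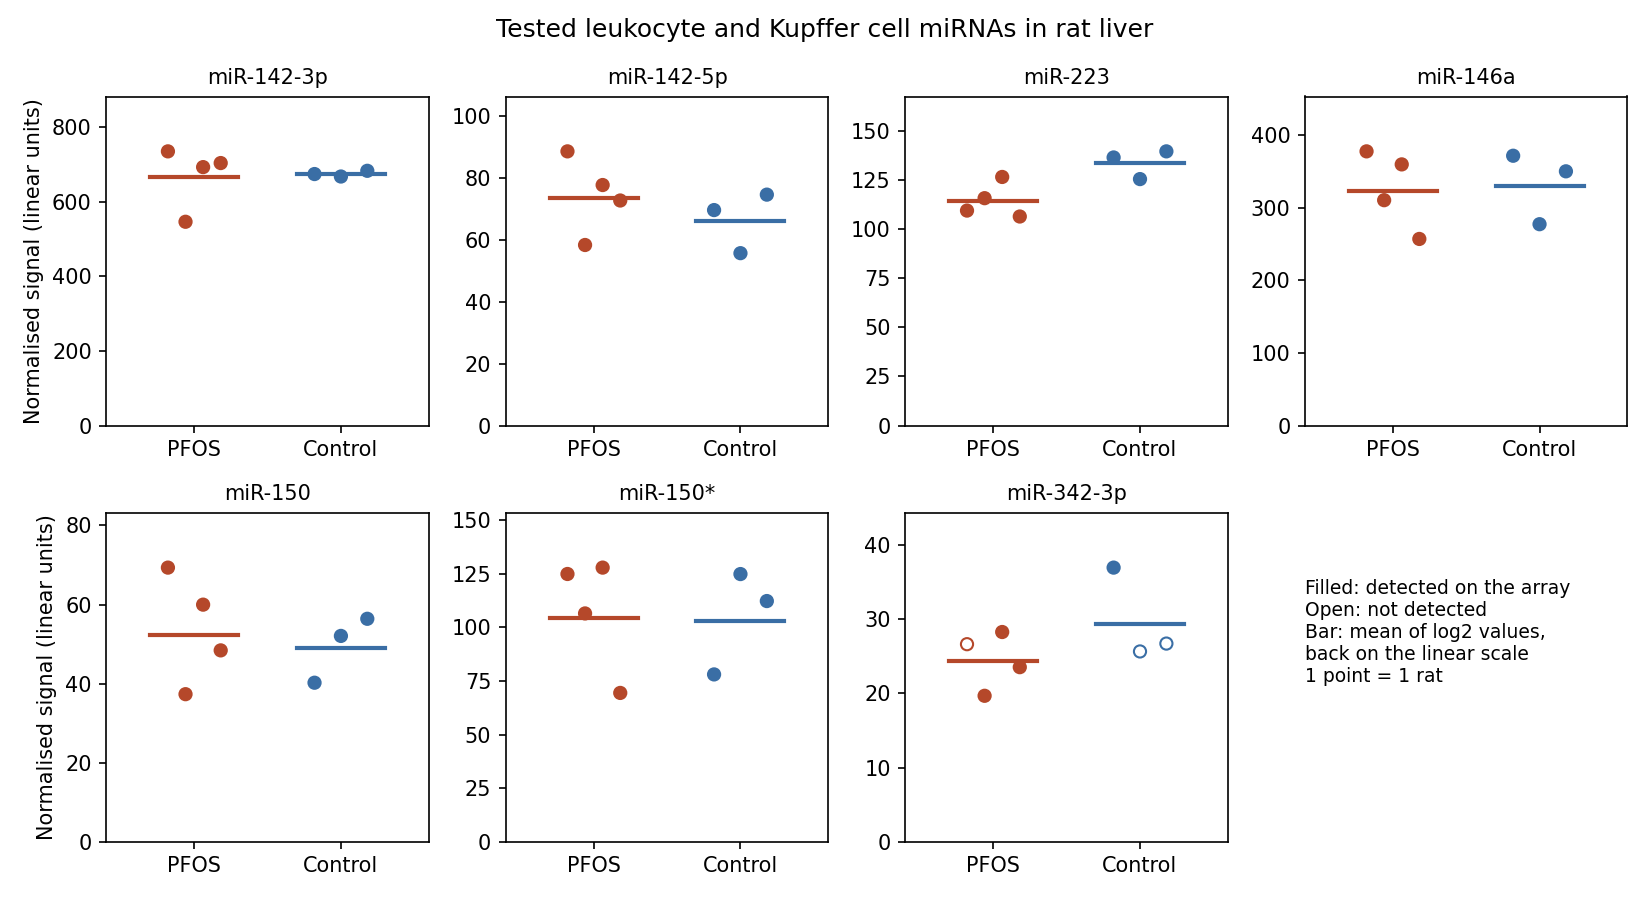
Normalised signal (linear units, axes from 0) of the 7 tested members, 1 point per rat with PFOS on the left and control on the right of each panel, and a bar at the group mean. The groups overlap in all 7 panels, most narrowly for miR-223, and the 3 control points of miR-142-3p sit between 668 and 683.

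miR-146a is induced by NF-kB signalling in macrophages and lymphocytes and represses the adaptors Traf6 and Irak1, so it acts as a brake on Toll-like receptor responses. Its signal was 377, 310, 359.5 and 257 in PFOS replicates 1 to 4, and 371, 277 and 350 in control replicates 1 to 3. Each group held livers near the top and near the bottom of this range.

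The means of miR-146a were 322 in PFOS and 330.3 in control livers (SD 0.25, n = 4, and SD 0.22, n = 3), which gave a log2 fold change of -0.03 (SE 0.17, 95% interval -0.44 to 0.37, limma adjusted p = 0.9997). Its 2 probes differed by -0.02 and -0.0021 before the loess step. The sign turned when any of 3 single arrays was left out, with a range of -0.15 to 0.07. Its paralog miR-146b, also induced during inflammation, was not detected, as described above.

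miR-150 is abundant in mature B and T lymphocytes, where it represses the transcription factor Myb. Its signal was 69.3, 37.3, 59.98 and 48.4 in PFOS replicates 1 to 4, and 40.2, 52.1 and 56.4 in control replicates 1 to 3. The PFOS livers included both the highest and the lowest of the 7 values. The means were 52.4 and 49.1 in PFOS and control livers (SD 0.39, n = 4, and SD 0.25, n = 3), with a log2 fold change of 0.09 (SE 0.24, 95% interval -0.47 to 0.66, limma adjusted p = 0.959).

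The star arm, miR-150*, gave 125, 106, 128 and 69.4 in PFOS replicates 1 to 4, and 78.0, 125 and 112 in control replicates 1 to 3. Each group had 1 liver well below its others, PFOS replicate 4 and control replicate 1. The means were 104 and 103 in PFOS and control livers (SD 0.41, n = 4, and SD 0.36, n = 3). The log2 fold change was 0.02 (SE 0.27, 95% interval -0.62 to 0.65, limma adjusted p = 0.9997). These arms gave the widest intervals of the 7 members. The spots of miR-150* scattered widely, with median coefficients of variation of 28.2% and 27.2% for its 2 probes and up to 85.8% on 1 array. Its direction differed between slide rows, at 0.56 in the first and -0.33 in the second.

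miR-342-3p is made from an intron of Evl and is found in lymphocytes and other blood cells, among other tissues. Its signal was 26.6, 19.7, 28.2 and 23.5 in PFOS replicates 1 to 4, and 36.9, 25.6 and 26.7 in control replicates 1 to 3. Control replicate 1 stood above the rest, and the other 2 control livers lay among the PFOS livers. The means were 24.3 in PFOS and 29.3 in control livers (SD 0.23, n = 4, and SD 0.29, n = 3).

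The log2 fold change of miR-342-3p was -0.27 (SE 0.18, 95% interval -0.71 to 0.16), the lowest of the 7, and it did not pass (limma adjusted p = 0.499). It was -0.69 within the first slide row, where control replicate 1 is the only control array, and -0.02 within the second. Without control replicate 1 it was -0.14. It turned to 0.01 in the authors' deposited table and under quantile normalization.

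**Figure D3:**
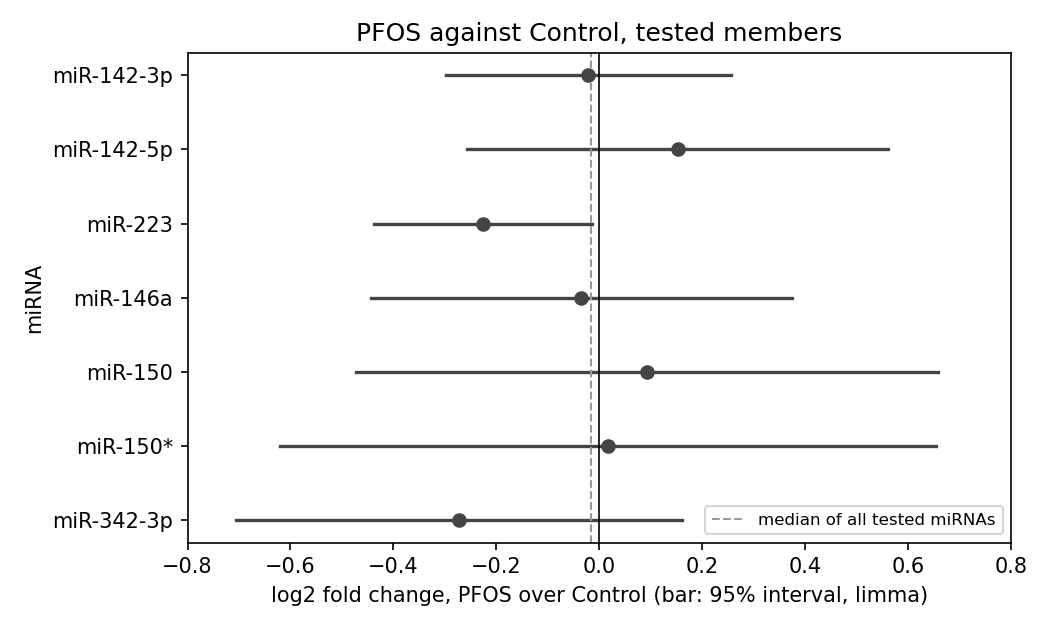
Log2 fold change of PFOS over control for the 7 tested members (points) with 95% intervals from limma (bars), and the median of all tested miRNAs as a dashed line. The interval of miR-223 ends at -0.01, and those of the other 6 members span 0.

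The way of scaling moved all members together. The labelling spike-in, an RNA added in equal amount before labelling, was 2.27-fold brighter on the PFOS arrays than on the control arrays. Scaling by it put all 7 members below 0, from -0.68 to -0.26. Scaling to the 75th percentile over all miRNAs put all 7 above 0, from 0.03 to 0.45. After subtraction of the median of all tested miRNAs, miR-223 was negative in 13 of 13 ways of processing, from -0.23 to -0.05. On the same footing miR-142-5p, miR-150 and miR-150* were positive in 13 of 13, and miR-142-3p, miR-146a and miR-342-3p changed sign or came to 0 in some. The 13 ways are not separate checks. A scaling by a single factor per array cancels in this subtraction, apart from values at the floor. The changes of filter reuse the reported fold changes and alter only the median. In none of the 19 alternatives, those that leave out an array included, did a member pass an adjusted p of 0.05, and the smallest adjusted p of miR-223 was 0.0575, under spike-in scaling.

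**Figure D4:**
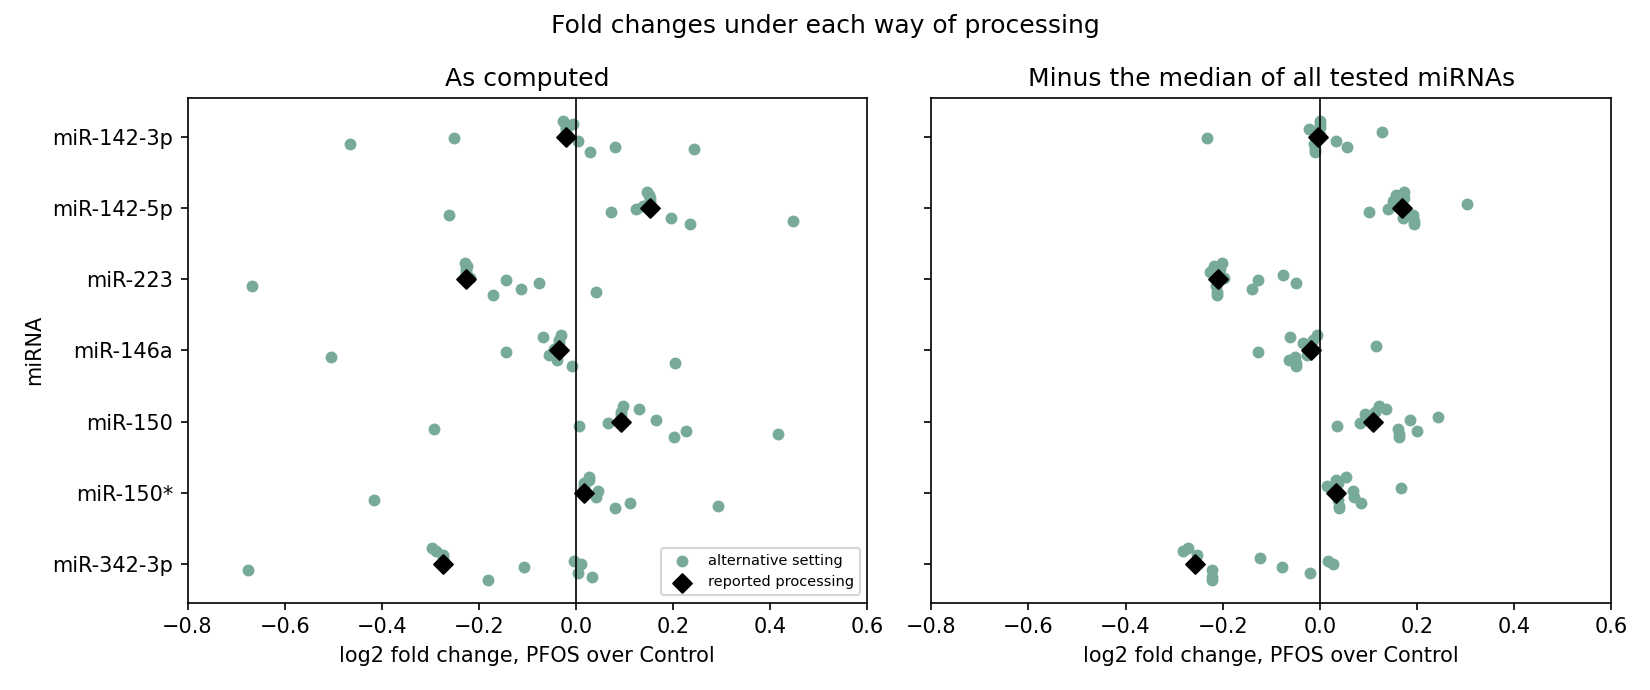
Log2 fold change of PFOS over control for the 7 tested members under the reported processing (diamonds) and the alternatives that keep all arrays (circles), as computed on the left and after subtraction of the median of all tested miRNAs on the right. On the left the values of miR-223 run from -0.67 to 0.04, on the right from -0.23 to -0.05.

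The 2 arms of a precursor were also compared within each array, where scaling common to the array cancels. Both arms were tested for 21 precursors, among them miR-142 and miR-150. The log2 ratio of miR-142-3p to miR-142-5p was 3.05, 3.23, 3.16 and 3.28 in PFOS replicates 1 to 4, and 3.28, 3.58 and 3.19 in control replicates 1 to 3. The arms carry different probes, so the ratio itself is no ratio of molecules, and its difference between groups is what can be read.

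That difference was -0.17 on the log2 scale (SE 0.12, 95% interval -0.46 to 0.11, limma adjusted p = 0.392 over the 21 ratios). The groups overlapped, with control replicate 2 the highest, and without it the difference was -0.04. For miR-150 over miR-150* the ratio was -0.85, -1.51, -1.09 and -0.52 in PFOS replicates 1 to 4, and -0.96, -1.26 and -0.99 in control replicates 1 to 3. The difference was 0.08 (SE 0.24, 95% interval -0.49 to 0.64, limma adjusted p = 0.884). Neither passed, where 4.76% of the 21 ratios did, that of miR-99a alone (0.47, SE 0.08, adjusted p = 0.0187).

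In the authors' deposited table, fitted in the same way with limma, the miR-142 ratio did pass, at -0.37 (SE 0.07, adjusted p = 0.00638). There miR-142-3p gave -0.25 and miR-142-5p gave 0.12. That table follows signals from which no background was subtracted, and 6 of the 21 ratios passed in it.

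**Figure D5:**
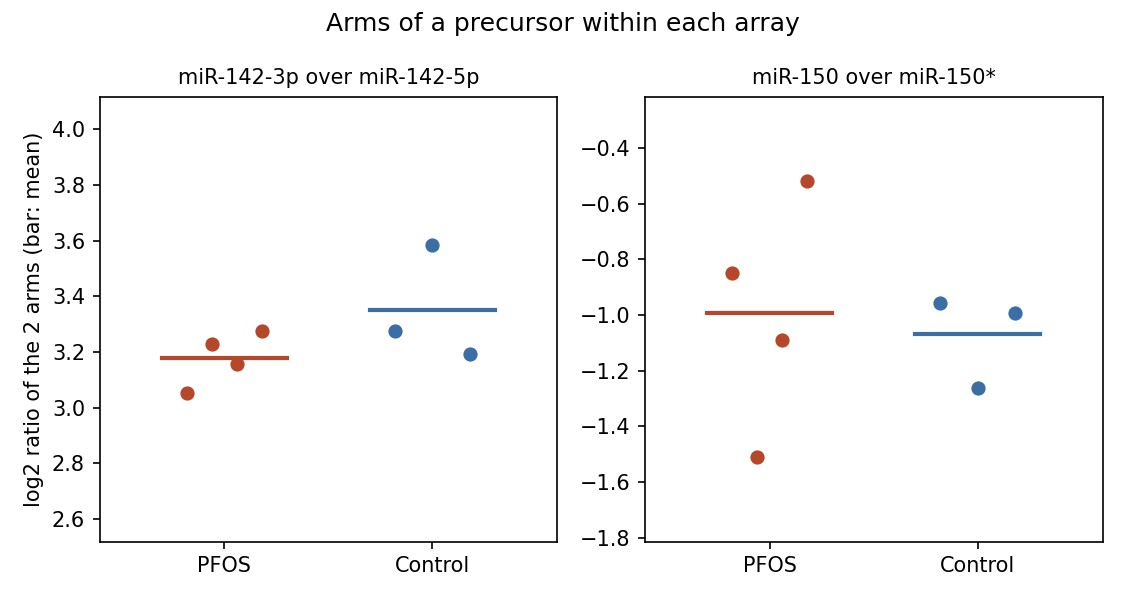
Log2 ratio of the arms of miR-142 (left) and miR-150 (right) within each array, 1 point per rat with PFOS left of control and a bar at the group mean. The miR-142 ratios run from 3.05 to 3.28 in PFOS and from 3.19 to 3.58 in control livers, and the miR-150 ratios of both groups overlap.

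Across the 7 arrays the members did not vary as 1 block. Pearson's r between pairs of them ran from -0.16 to 0.76, with miR-142-3p and miR-150 the most alike (0.76) and miR-142-3p and miR-142-5p next (0.72). miR-223 had an r of -0.03 with miR-142-3p. These values are descriptions over 7 arrays that share the normalisation and the 2 groups.

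The tested miRNA most like each member, by Pearson's r over the 7 arrays, was miR-194 for miR-223 (0.95) and miR-320 for miR-150* (0.96). It was let-7c for miR-150 (0.89), miR-425 for miR-342-3p (0.86), miR-532-5p for miR-142-5p (0.83), miR-219-5p for miR-142-3p (0.82) and miR-29a for miR-146a (0.82). The highest of 174 values is large by selection, and without 1 array that of miR-142-3p with miR-219-5p fell to 0.36. miR-194, a hepatocyte-enriched miRNA, was at 1376 in PFOS and 1491 in control livers on average, with a log2 difference of -0.12 (SE 0.08, limma adjusted p = 0.499).

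Other miRNAs linked to immune cells were looked at in a list of 10 that held the miR-181 family, miR-132, miR-212, miR-147, miR-21, miR-125a-5p and miR-125b-5p. Of the 10, 5 were tested, of which 1 had a positive and 4 a negative fold change, with a median of -0.06. Limma called 0 of the 5 by adjusted p and also 0 at an unadjusted p under 0.05, where the shares among all tested miRNAs were 0% and 19.4%. miR-21, which is raised in activated macrophages and in many injured tissues, had mean signals of 9340 in PFOS and 10388 in control livers, and its log2 fold change was -0.15 (SE 0.11). The values were -0.06 (SE 0.17) for miR-125b-5p and 0.09 (SE 0.44) for miR-212.

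The erythroid miRNAs miR-451 and miR-144, which follow the red cells left in the tissue, varied between livers of both groups. Their summed signal was 438 to 1079 in PFOS and 518 to 930 in control livers, and neither passed. miR-451 was 936, 375, 944 and 472 in PFOS replicates 1 to 4, and 729, 803 and 441 in control replicates 1 to 3. The part of blood in the signal of the leukocyte miRNAs was not tested. The endothelial pair miR-126 and miR-126* summed to 1714 to 1854 in PFOS and 1571 to 1936 in control livers. Hepatocyte miRNAs summed to 70383 to 73688 in PFOS and 72390 to 72878 in control livers, and mesenchymal ones to 746 to 1047 in PFOS and 819 to 1023 in control livers. Epithelial miR-200 family members summed to 294 to 536 in PFOS and 62.7 to 189.7 in control livers. Most of the hepatocyte sum was miR-122 (log2 fold change 0.00, SE 0.06). At an unadjusted p under 0.05 in limma that list held 1 of 6 members lower, miR-122* at -0.25 (SE 0.08), and 1 higher, miR-101a at 0.20 (SE 0.07). The mesenchymal list held 1 of 5 lower, miR-145 at -0.23 (SE 0.09). Among all tested miRNAs 10.9% were lower and 8.57% higher at that threshold, and the counts of 1 were near those shares. The choice to name miR-122*, miR-101a and miR-145 was made after seeing their values, and 0 of these 3 passed the adjusted threshold. Of the 3, miR-145 was detected on 3 of 4 PFOS arrays and on 0 of 3 control arrays. Its mean signal, 14.1 in PFOS and 16.5 in control livers, was close to the signal floor. The difference for miR-145 thus rests in part on signal that was not well above background. Of these lists the miR-200 family was the one whose summed signal did not overlap between groups. A sum adds signals of unlike probes and follows the brightest of them, so it does not measure the amount of a cell type. How often sums of other miRNAs would be free of overlap was not counted. Of the 5 miR-200 family members listed, 3 were tested. All 3 were higher in PFOS livers at an unadjusted p under 0.05 in limma, as were 8.57% of all tested miRNAs. Of these members 0 passed the adjusted threshold. Among them miR-429 was detected on 4 of 4 PFOS arrays and on 0 of 3 control arrays, so it was tested only through the PFOS arrays. Its control mean of 16.7 was close to the signal floor, and its difference rests in part on signal that was not well above background. The part of the other lists in the leukocyte miRNAs' values was not tested.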

How the data were processed

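The members and the lists were chosen with earlier results of these data known. Per the file headers, spot intensity values came from 1-colour Agilent arrays on 1 slide with 1 scan time, made by Feature Extraction 10.7.3.1, and the processed signal used here is background-subtracted but not normalized between arrays. The log2 values of the deposited series table were normalized by the authors with cyclic lowess, per the labels. Each of its columns followed the unsubtracted median pixel signal (Pearson's r across miRNAs 0.9987 to 0.9999), with column medians from 5.48 to 5.51. Replicate numbers only name the arrays.

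Spots with an outlier flag were left out, spots averaged per probe and probes summed per miRNA. Each array was brought to the same 75th percentile, taken over miRNAs detected on all arrays, then values were floored at 12.1 (the 1st percentile of detected values), log2 taken, and cyclic loess applied (pairs, span 0.7, 3 iterations, weight on miRNAs detected on all arrays). Tested were miRNAs detected on all control or at least 3 PFOS arrays, with the lmFit and eBayes functions of limma 3.58.1 in R 4.3.3, p-values adjusted by Benjamini-Hochberg over all 175, threshold 0.05. The steps were checked on simulated data. Named were all members, for each tested member the 1 miRNA most like it, and up to 3 brightest of other lists. Alternatives changed the normalization, background, source, spot summary, filter, floor and slide row, and left out each array. The number of arrays limits the precision.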

Additional observations from a re-analysis of the deposited data

How the results depend on the processing

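No member passed an adjusted p of 0.05 in limma under any of the 19 alternatives, 7 of which leave out an array, and 1 of which, the array order in pairwise loess, was chosen after seeing the data. The low members miR-150 and miR-342-3p are limited by signal close to background, and miR-342-3p was not tested in 4 of the 19, those without PFOS replicate 2, 3 or 4 and that restricted to miRNAs detected on all arrays. No paired analysis was possible because the labels give PFOS and control rats no shared replicate numbers.

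Each of the 7 members turned sign under at least 1 alternative, the members with the largest fold changes (miR-342-3p, miR-223 and miR-142-5p) included, and the cause was not tested. Over all miRNAs, 75th percentile scaling gave 0.24 for miR-142-3p, 0.21 for miR-146a, 0.042 for miR-223 and 0.032 for miR-342-3p. Over miRNAs detected on all arrays it gave 0.030 for miR-142-3p. Quantile normalization gave 0.081 for miR-142-3p and 0.0051 for miR-342-3p, and normexp 0.0042 for miR-142-3p and -0.036 for the miR-150 arm ratio. Spike-in scaling gave -0.26 for miR-142-5p, -0.29 for miR-150 and -0.42 for miR-150*. The deposited table gave 0.011 for miR-342-3p and, for the miR-142 arm ratio, a call at -0.37.

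Leaving out each array gave -0.077 to 0.069 for miR-142-3p, 0.01 to 0.28 for miR-142-5p, -0.15 to 0.070 for miR-146a and -0.044 to 0.28 for miR-150. It gave -0.16 to 0.21 for miR-150*, -0.29 to -0.15 for miR-223 and -0.39 to -0.14 for miR-342-3p. The arm ratios ran from -0.30 to -0.04 for miR-142 and from -0.081 to 0.27 for miR-150.

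Among all tested miRNAs, 0 passed as reported (34 at an unadjusted p under 0.05) and 0 without any 1 array. The count was 22 with normexp, 9 in the deposited table, 8 with spike-in scaling, 4 with the slide row as a block and 3 with the percentile over all miRNAs. It was 1 with the software's total gene signal and 1 with all miRNAs tested. Of arm ratios, 1 passed as reported. The count was 6 in the deposited table, 4 with normexp, and 2 under either percentile scaling, spike-in scaling, the floor at the 5th percentile and all miRNAs tested. It was 0 with quantile normalization, the total gene signal and miRNAs detected on all arrays, and 0 to 2 when an array was left out, with 0 without PFOS replicate 2, 3 or 4 or control replicate 3 and 2 without control replicate 1.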
